A study of Mus musculus with 36 samples.

Results

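The data described here cover the early rest phase of normoxia liver, as the 3 mice killed at ZT4 against the 3 killed at ZT0, which are 6 of the 36 liver libraries of the series. Members were chosen by their labels alone. The 36 mice were wild-type C57BL/6JRj males, 16 weeks old, caged in groups of 5 with 12 h of light a day that began at ZT0, and with chow and water always present. For 4 weeks the intermittent hypoxia (IH) mice breathed cycles of low oxygen from ZT0 to ZT8, and normoxia mice breathed cycles of air in their place. Each library came from 1 mouse, so the ZT0 and ZT4 values belong to different animals, and a difference between them is read from the spread among 3 mice at each time.

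The liver clock is a feedback loop. BMAL1 (encoded by Arntl) pairs with CLOCK or NPAS2 and switches on the Per and Cry genes, whose products shut the pair off, and the Nr1d1 and Nr1d2 genes, which encode the REV-ERB receptors that repress Arntl. In a night-active animal the early light phase is the time at which the REV-ERB genes climb toward their midday peak, feeding declines and the liver turns from storing toward releasing fuel.

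Polyadenylated RNA was measured as FPKM, fragments scaled by transcript length and by the size of the library. The 6 libraries had 15690 to 15980 symbols above 0 and correlated with the others of their own group with r of 0.989 to 0.9934 on the log2 scale. Between ZT0 and ZT4 libraries r was 0.9824 to 0.9903, which overlaps that range. The number of fragments is not given, but low values fall in steps of 1 fragment, and the size of that step put normoxia ZT0 replicate 3 at 0.782 of the depth of replicate 2 and the others between 0.935 and 1.01. Differences are on the scale of log2(FPKM + 1), ZT4 minus ZT0, which understates the change of genes below a few FPKM. Of 13215 genes tested, 33 passed a Benjamini-Hochberg adjusted p of 0.05 in limma. They were 9 higher at ZT4 (0.0681% of genes tested) and 24 lower (0.182%). At a nominal P of 0.01 or less there were 234 higher (1.77%) and 856 lower (6.48%), and the median difference of all genes was -0.06. When the libraries were scaled by their median ratio, that median was -0.0026, and 20 genes were higher and 13 lower, so which direction held more genes depended on the scaling. The counts also rested on few mice, since without any 1 of the 6 they were 1 to 15 higher and 2 to 9 lower. At the nominal P, 444 of all genes were higher and 483 lower under the median ratio, and 436 and 504 under quantile normalization. Without any 1 mouse, 158 to 243 were higher and 458 to 730 lower at that P. List counts in these settings therefore have backgrounds of their own. Nr1d2, Palld and Ppard passed in 17 of 18 alternative analyses, and none of the 33 changed direction in any where it was tested. That constancy is not support, because the genes were chosen in these same mice. Of the 33, 31 averaged 1 FPKM or more with no overlap between the times, which keeps the direction when a mouse is left out. In bulk liver, fewer cells of a type and less RNA per cell cannot be told apart.

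The clearest rise was in the REV-ERB arm of the clock, and it was large against the spread among mice. Nr1d1, on the minus strand of chromosome 11 (98767932 to 98775333, mm10, here as for the other genes the span in the GENCODE annotation), read 1.64, 0.787 and 1.88 FPKM in the 3 mice at ZT0 and 55.2, 34.2 and 28.0 FPKM at ZT4. The lowest ZT4 mouse was far above the highest ZT0 mouse, and the ratio of the means was 27.3. Its log2 difference was 4.01 ± 0.28 (SE, here and below) with an adjusted p of 0.00764. Nr1d2 (chromosome 14, 18204054 to 18239127), which encodes the second REV-ERB receptor, read 1.40, 1.09 and 1.46 FPKM at ZT0 and 8.53, 9.69 and 8.67 FPKM at ZT4. It had the smallest P of all genes tested, with a difference of 2.11 ± 0.09 and an adjusted p of 0.00207. Rora, which encodes a ROR receptor that activates at sites where REV-ERB represses, at 3.55 ± 0.387 and 4.10 ± 0.413 FPKM (SD, n = 3), overlapped between the times.

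Among the clock output factors, Dbp was the gene past the threshold. Dbp (plus strand of chromosome 7, 45705088 to 45710203) encodes a PAR bZIP activator that carries the clock's signal to metabolic genes. It read 0.537, 0.289 and 0.215 FPKM at ZT0 and 3.90, 2.77 and 4.52 FPKM at ZT4, which gave a difference of 1.80 ± 0.16 and an adjusted p of 0.0212. Its relatives at the same kind of site did not move as a block. Tef read 5.92, 5.65 and 3.68 FPKM at ZT0 and 9.56, 8.38 and 9.20 FPKM at ZT4 (difference 0.74 ± 0.16, adjusted p of 0.0759), whereas the ZT4 mice lay below the ZT0 mice for Hlf, at 7.79, 6.33 and 5.46 FPKM against 4.74, 4.03 and 4.42 FPKM (difference -0.47 ± 0.13, adjusted p of 0.110). Nfil3, which encodes the repressor of those sites, read 26.2, 22.9 and 29.5 FPKM at ZT0 and 14.2, 15.3 and 9.75 FPKM at ZT4. These mice did not overlap either, and the difference of -0.97 ± 0.17 had an adjusted p of 0.0585. Bhlhe40 spread from 14.4 to 51.4 FPKM at ZT0 and from 12.4 to 39.6 FPKM at ZT4, and Bhlhe41 read 0.126 to 0.164 FPKM and 0.159 to 0.261 FPKM, so neither could be told apart between the times.

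All 3 activators had lower values at ZT4 without overlap, and none passed the adjusted threshold. All 3 reached the nominal P of 0.01, and 1 did under scaling by the median ratio. Over all genes tested, 483 were lower under that scaling, against 856 as deposited. Arntl read 12.3, 9.71 and 10.2 FPKM at ZT0 and 8.64, 7.19 and 7.21 FPKM at ZT4 (difference -0.43 ± 0.11, adjusted p of 0.106). Clock differed by -0.32 ± 0.07 (adjusted p of 0.0836). Npas2, the partner that can stand in for CLOCK, had the largest of these differences, from 4.26, 3.05 and 4.33 FPKM to 1.01, 1.89 and 1.62 FPKM (-0.97 ± 0.17, adjusted p of 0.0585). Of the 6 repressors, Cry1 read 12.9, 9.14 and 7.52 FPKM at ZT0 and 2.91, 4.14 and 2.83 FPKM at ZT4, a difference of -1.32 ± 0.20 with an adjusted p of 0.0574. Per2 differed by -0.89 ± 0.21 (adjusted p of 0.0893) and also without overlap between mice. Per1 did not separate the times, and 1 mouse stood apart, normoxia ZT0 replicate 2 at 4.45 FPKM against 1.15 and 1.36 FPKM in the other ZT0 mice. Cry2, Per3 and Ciart overlapped too. In all, 19 clock genes were tested, 3 were higher at the adjusted threshold and 0 lower. At the nominal P of 0.01, where the background was 1.77% and 6.48%, 4 were higher and 8 lower, and the same 12 genes were those whose mice did not overlap between the times. Over all genes tested, 6.24% were higher and 21.6% lower without overlap.

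**Figure D1:**
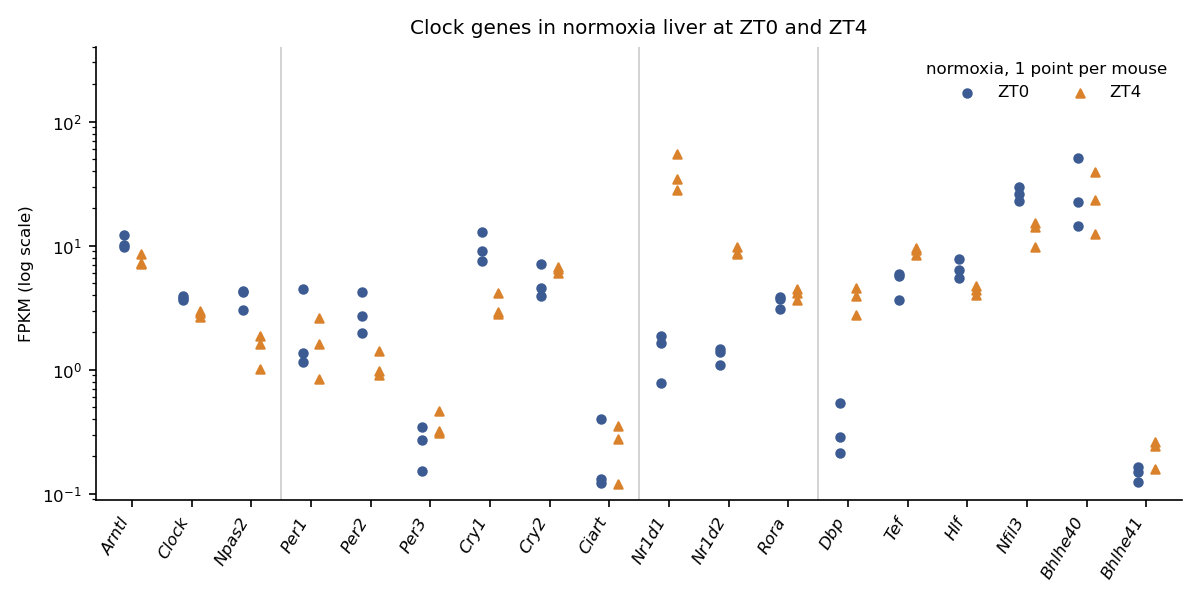
FPKM (log axis) of 18 clock genes in each normoxia mouse, with circles for the 3 mice at ZT0 and triangles for the 3 at ZT4, and grey lines between activators, PER and CRY repressors, REV-ERB and ROR receptors, and output factors. Nr1d1, Nr1d2 and Dbp lie higher at ZT4 with a gap between the times, while Npas2, Cry1 and Nfil3 lie lower.

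The other 6 genes that rose belong to several processes. Hdc (chromosome 2, 126593667 to 126619299), which encodes histidine decarboxylase, the enzyme that makes histamine, read 1.39, 1.36 and 1.26 FPKM at ZT0 and 4.84, 3.67 and 4.86 FPKM at ZT4 (difference 1.21 ± 0.11, adjusted p of 0.0212). The mice of each time lay close together, and the means stood at a ratio of 3.33. Rdh9, a retinol dehydrogenase gene of the retinoid and steroid pathways, read 7.11, 6.25 and 7.65 FPKM at ZT0 and 13.7, 13.9 and 14.1 FPKM at ZT4 (0.90 ± 0.08, adjusted p of 0.0257). Flcn, which encodes folliculin, a regulator of the response of mTORC1 to amino acids at the lysosome, read 4.63, 4.53 and 4.78 FPKM at ZT0 and 7.97, 8.40 and 8.71 FPKM at ZT4 (0.73 ± 0.07, adjusted p of 0.0261). Tbc1d15, a Rab GTPase regulator, rose by 0.72 ± 0.08 and Mafk, a small MAF partner of NRF2, by 0.64 ± 0.08. Srrm4, a splicing factor best known from neurons, read 0.225 to 0.409 FPKM at ZT0 and 1.35 to 2.07 FPKM at ZT4 (1.05 ± 0.11, adjusted p of 0.0452). Its ZT4 level was the lowest of the 9, and its step in IH was 0.07 ± 0.25.

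Among the genes past the adjusted threshold, the largest fall was in Ppard (plus strand of chromosome 17, 28232700 to 28301474), which encodes the nuclear receptor PPAR delta, a sensor of fatty acids. Ppard read 20.0, 23.2 and 18.6 FPKM at ZT0 and 5.41, 4.40 and 3.97 FPKM at ZT4. The ZT0 mean was 4.49 times the ZT4 mean, and the difference was -1.95 ± 0.12 with an adjusted p of 0.00668. Esrra (chromosome 19, 6910977 to 6921813), which encodes the estrogen-related receptor alpha that drives mitochondrial genes, went from 14.4, 16.0 and 12.9 FPKM to 6.94, 7.89 and 7.30 FPKM, a difference of -0.88 ± 0.09 with an adjusted p of 0.0452. Ncoa5, a coregulator of nuclear receptors, went from 8.03, 8.19 and 7.49 FPKM to 3.44, 3.41 and 3.15 FPKM. Its mice spread by less than 1 FPKM at each time, and the difference was -1.04 ± 0.07 (adjusted p of 0.00764).

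Palld (chromosome 8, 61511433 to 61902690), which encodes palladin, an organizer of actin, read 26.1, 29.2 and 23.8 FPKM at ZT0 and 8.30, 8.86 and 8.56 FPKM at ZT4, a difference of -1.51 ± 0.09 with an adjusted p of 0.00543. Tjp3, the tight junction protein ZO-3, went from 23.3, 22.7 and 20.8 FPKM to 10.9, 11.9 and 8.75 FPKM, a difference of -1.02 ± 0.11. The acyltransferases that make phosphatidic acid for membrane lipid and triglyceride both fell, Agpat1 by 0.80 ± 0.09 and Agpat2 by 0.68 ± 0.07, and Agpat2 was the most abundant gene of the 24, with means of 170 and 106 FPKM. Dexi, Lgalsl, Dcun1d2, Caprin1 and Rin3 fell by 0.95, 0.80, 0.76, 0.73 and 0.71 on the log2 scale. For 20 of the 24 genes the fall was by less than 1 on that scale. In 11 of these, Rbm10, Nup35, Prpf3, Pip4k2b, Doc2g, Nbeal2, Ino80e, Smarcd2 and Tbc1d13, with Hist2h3b and 1700084E18Rik below a mean of 1 FPKM, named here after their values were seen, it was by 0.52 to 0.70. Hist2h3b has near-identical copies, between which the counting could split fragments.

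Over the 6 normoxia time points, ZT0 had the lowest mean for 5 of the 9 genes that rose. ZT4 had the highest mean for 3 of the 9 and ZT8 for the other 6. Nr1d1 went on to 58.8 FPKM and Nr1d2 to 19.5 FPKM at ZT8, and Dbp, at 3.73 FPKM at ZT4, reached 70.8 FPKM. Of the 24 that fell, 19 had their highest mean at ZT0, and ZT4 was the lowest point for 13 and ZT8 for 7. Ppard kept falling, to 2.53 FPKM at ZT8, and was back at 14.3 FPKM at ZT20. Esrra by contrast was at its lowest at ZT4 and at 14.6 FPKM again by ZT8. These ranks are a description, since ZT0 and ZT4 also chose the genes.

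**Figure D2:**
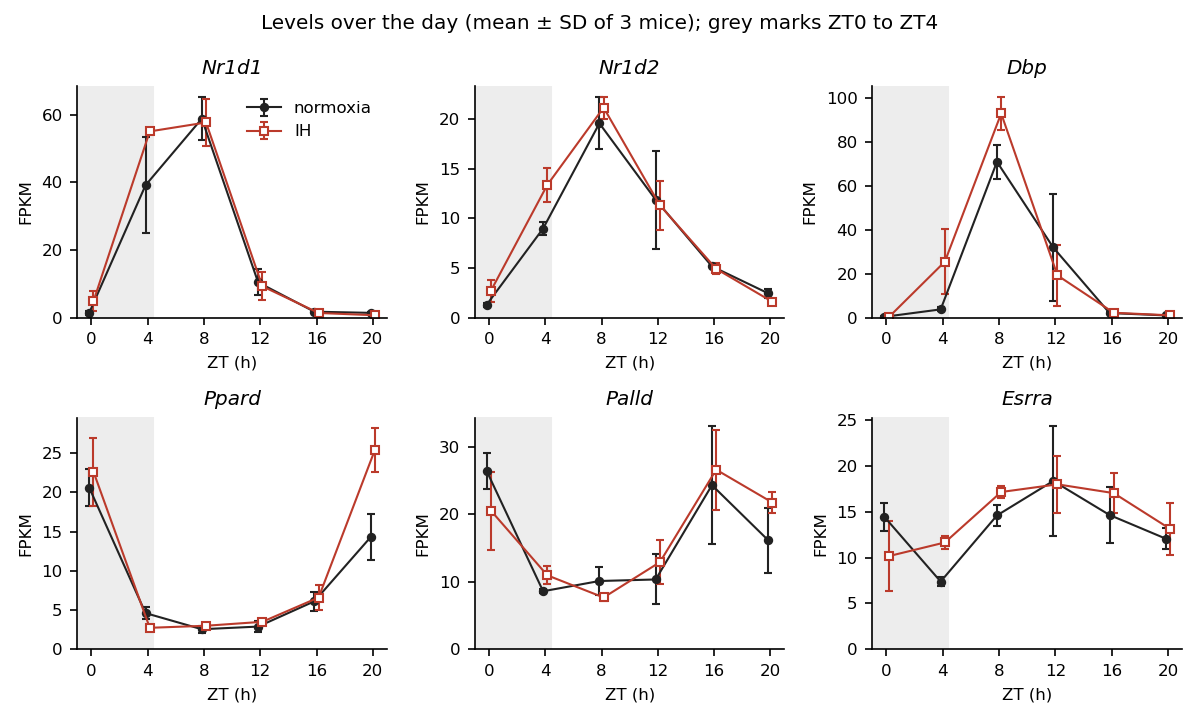
FPKM of 6 genes at each ZT (h) in normoxia (filled circles) and IH (open squares), as the mean ± SD of 3 mice, with the ZT0 to ZT4 step in grey. Nr1d1, Nr1d2 and Dbp climb from ZT0 to a maximum at ZT8, Ppard and Palld drop within the grey band, and Esrra dips at ZT4 in normoxia, at 7.38 FPKM against 11.7 FPKM in IH.

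Promoter sequence is given for genes of this step in windows from 250 bases before to 50 bases after the start (RefSeq, GRCm38.p6), to show which of them hold a clock or heat shock motif close to the start. The E-box bound by BMAL1 and its partner was searched as CACGTG, the element shared by ROR and REV-ERB as TAGGTCA, and the site of heat shock factor as GAANNTTC, each on both strands. Of 27025 symbols with a window, 8.09% held the E-box, 2.97% the ROR element and 9.04% the heat shock element in at least 1 window. Of the 9 genes that rose, 3 held the E-box, Mafk, Rdh9 and Tbc1d15, as did 4 of the 20 genes with a window among those that fell. The ROR element was in 0 of the 9 and 1 of the 20 (Tjp3). The heat shock element was likewise in 0 of the 9 and 1 of the 20 (Ino80e). Among the clock genes with a window, Per1, Cry1, Ciart, Tef and Bhlhe41 held the E-box, and Nr1d1, Nr1d2 and Dbp held none of these letters in this window. The ROR element stood in the windows of Arntl and Nfil3, and in no other clock gene searched. In the list of heat shock chaperones, 10 of the 16 genes with a window held the heat shock element. The windows below run 5′ to 3′ on the strand of the gene, with the match in capitals. Rdh9 lies at chr10:127776155-127776454 (plus strand), Mafk at chr5:139791286-139791585 (plus strand), Arntl at chr7:113207261-113207560 (plus strand), Nfil3 at chr13:52980990-52981289 (minus strand), Chordc1 at chr9:18292017-18292316 (plus strand) and Hspa1b at chr17:34959189-34959488 (minus strand). Rdh9 and Mafk are shown as risers with the E-box, Arntl and Nfil3 as clock genes with the ROR element whose levels were lower at ZT4, and Chordc1 and Hspa1b for the heat shock element, which Chordc1 holds at 2 places.
Rdh9: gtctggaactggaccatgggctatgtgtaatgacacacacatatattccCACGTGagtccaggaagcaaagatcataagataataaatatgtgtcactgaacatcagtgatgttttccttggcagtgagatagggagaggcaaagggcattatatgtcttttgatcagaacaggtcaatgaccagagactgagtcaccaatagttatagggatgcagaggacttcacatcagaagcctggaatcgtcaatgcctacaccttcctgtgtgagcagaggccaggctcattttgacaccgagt
Mafk: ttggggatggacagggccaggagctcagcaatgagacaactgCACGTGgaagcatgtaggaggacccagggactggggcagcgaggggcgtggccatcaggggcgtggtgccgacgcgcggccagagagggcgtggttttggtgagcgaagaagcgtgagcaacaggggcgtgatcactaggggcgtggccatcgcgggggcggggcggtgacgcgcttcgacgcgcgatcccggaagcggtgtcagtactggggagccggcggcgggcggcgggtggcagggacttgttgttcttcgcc
Arntl: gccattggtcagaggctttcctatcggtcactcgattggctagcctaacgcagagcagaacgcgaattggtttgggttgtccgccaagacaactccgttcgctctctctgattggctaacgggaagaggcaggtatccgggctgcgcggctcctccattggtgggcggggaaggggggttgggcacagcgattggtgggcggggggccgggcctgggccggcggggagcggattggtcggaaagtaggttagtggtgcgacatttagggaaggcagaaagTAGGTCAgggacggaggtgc
Nfil3: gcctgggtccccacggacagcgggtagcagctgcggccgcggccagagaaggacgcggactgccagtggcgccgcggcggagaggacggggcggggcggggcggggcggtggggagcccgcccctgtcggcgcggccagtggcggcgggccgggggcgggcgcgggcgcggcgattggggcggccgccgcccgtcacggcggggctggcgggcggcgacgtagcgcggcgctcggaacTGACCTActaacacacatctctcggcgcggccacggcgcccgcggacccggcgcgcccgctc
Chordc1: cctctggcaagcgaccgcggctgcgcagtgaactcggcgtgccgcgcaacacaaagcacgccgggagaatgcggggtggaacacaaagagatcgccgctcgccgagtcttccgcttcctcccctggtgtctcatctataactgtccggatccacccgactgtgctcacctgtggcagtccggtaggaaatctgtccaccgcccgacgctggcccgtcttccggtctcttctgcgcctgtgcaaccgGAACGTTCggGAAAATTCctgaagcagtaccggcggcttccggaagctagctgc
Hspa1b: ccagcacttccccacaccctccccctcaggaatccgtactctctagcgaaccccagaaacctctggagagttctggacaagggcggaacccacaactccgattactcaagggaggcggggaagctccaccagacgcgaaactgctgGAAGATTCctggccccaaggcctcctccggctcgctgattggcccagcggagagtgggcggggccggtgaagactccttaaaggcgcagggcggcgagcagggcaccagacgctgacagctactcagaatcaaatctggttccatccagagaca
A match describes the letters only, and binding was not measured.

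The heat shock chaperones, which fold proteins and are induced by heat, formed with Hsf1 the list with the most members at low nominal P. Of its 21 genes, 0 passed the adjusted threshold, 12 (57.1%) were lower at a nominal P of 0.01 or less and 0 higher, against the background of 6.48% and 1.77%. The median difference of the list was -0.43, and it was -0.33 when libraries were scaled by their median ratio, under which 9 members were lower. Under that scaling 483 of all 13215 genes were lower, against 856 as deposited, and the median of all genes was -0.0026. Hspa8, the constitutive cytosolic chaperone and the most abundant member, read 696, 863 and 616 FPKM at ZT0 and 351, 304 and 359 FPKM at ZT4, a difference of -1.09 ± 0.14 with an adjusted p of 0.0508. The ZT0 mean was 2.14 times the ZT4 mean, and the mice did not overlap. Members beyond Hspa8 are named here after their values were seen. The inducible Hspa1b read 11.3, 33.2 and 9.75 FPKM at ZT0 and 2.55, 1.17 and 2.23 FPKM at ZT4 (difference -2.50 ± 0.45, adjusted p of 0.0585). Hspa1a, a near-identical copy whose fragments cannot be fully separated from those of Hspa1b, lay the same way at a lower level. Chordc1, a cochaperone of the HSP90 machinery, read 17.6, 22.0 and 14.9 FPKM at ZT0 and 9.54, 7.66 and 8.34 FPKM at ZT4, the ZT0 mean being 2.13 times the ZT4 mean (adjusted p of 0.0544). The cochaperones Dnajb1, Hsph1 and Bag3 differed by -1.23 ± 0.19, -1.21 ± 0.24 and -1.33 ± 0.29. Hsf1, the heat shock factor itself, read 9.11, 10.8 and 9.40 FPKM at ZT0 and 6.64, 7.17 and 6.52 FPKM at ZT4 (-0.47 ± 0.09, adjusted p of 0.0616).

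Normoxia ZT0 replicate 2 was the highest mouse for Hspa8, Hspa1b, Dnajb1, Hsph1, Chordc1 and Bag3. Without it the median difference of the list was -0.40, and 9 members were lower at the nominal P. Over all genes tested, 730 were lower without that mouse, against 856 with it. Cirbp and Rbm3, the cold-inducible RNA-binding proteins, lay the other way and made up their list of 2. Cirbp read 8.54, 5.61 and 10.4 FPKM at ZT0 and 18.7, 23.6 and 18.0 FPKM at ZT4 (1.23 ± 0.21, adjusted p of 0.0585), and Rbm3 read 6.76, 9.87 and 11.9 FPKM at ZT0 and 19.0, 17.3 and 25.3 FPKM at ZT4 (1.05 ± 0.21, adjusted p of 0.0733). Neither overlapped between the times. Body temperature was not part of these files.

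**Figure D3:**
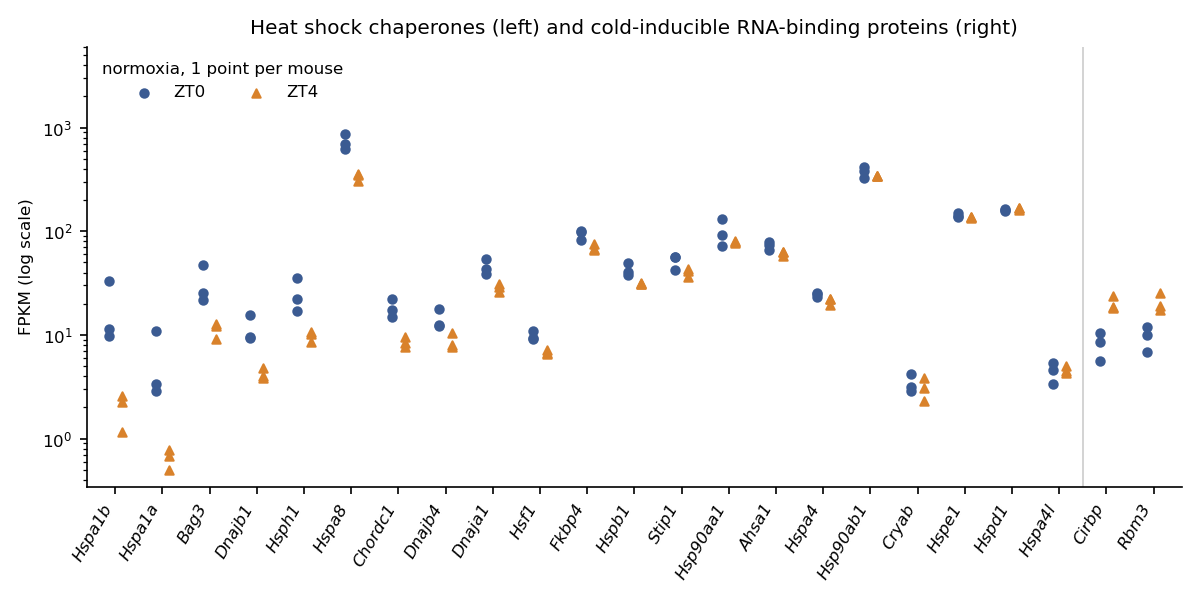
FPKM (log axis) of 21 heat shock chaperone genes, ordered by their difference, and of Cirbp and Rbm3 to the right of the line, in each normoxia mouse at ZT0 (circles) and ZT4 (triangles). The 12 genes at the left lie lower at ZT4 without overlap, Hsp90aa1 and most of those to its right overlap, and Cirbp and Rbm3 lie higher at ZT4.

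Carbohydrate genes were mixed, and none of their list members passed the adjusted threshold. In glycolysis and sugar entry, 3 of 17 genes were lower (17.6%) at the nominal P and 0 higher, against 6.48% and 1.77% of all genes. The median was -0.17, and it was -0.07 under scaling by the median ratio, where 0 were lower. The lower genes also numbered 0 without normoxia ZT4 replicate 2 and without ZT4 replicate 3. Over all genes, 483, 722 and 458 were lower in those settings, in that order, against 856 in the main fit. Among the 3 lower genes of the main fit were Khk (ketohexokinase, -0.35 ± 0.07) and the glycolytic isomerase Tpi1 (-0.28 ± 0.08). In gluconeogenesis, 1 of 14 genes was higher (7.14%) and 0 lower. It was Pck1, which encodes the enzyme of the committed step, at 273, 303 and 449 FPKM at ZT0 and 723, 760 and 937 FPKM at ZT4 (1.26 ± 0.20, adjusted p of 0.0574). Fbp1 and Ldha overlapped between the times, with differences of -0.33 ± 0.14 and 0.07 ± 0.17.

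In the glycogen list, 3 of 22 genes were lower (13.6%) and 1 higher (4.55%), with a median of -0.02. Of all genes tested, 6.48% were lower and 1.77% higher. Without normoxia ZT0 replicate 2, 1 member was lower and 0 higher, and in a fit of all 18 normoxia libraries 2 were lower and 0 higher. Over all genes, 730 were lower and 192 higher without that mouse, and 595 and 165 in the 18 libraries. The enzymes themselves showed little, with Gys2, the liver glycogen synthase, at 0.06 ± 0.08 and Pygl, the phosphorylase, at -0.20 ± 0.11. The 4 genes at the nominal P were all subunits that target protein phosphatase to glycogen. Ppp1r3b read 96.7, 103 and 44.8 FPKM at ZT0 and 28.1, 15.3 and 28.8 FPKM at ZT4 (-1.68 ± 0.37, adjusted p of 0.0792). Ppp1r3c (-1.28 ± 0.28) and Ppp1r3e (-0.47 ± 0.10) were lower too, and Ppp1r3g was higher at ZT4 but never above 0.226 FPKM.

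Lipid and bile acid lists gave few members at the nominal P, at which 6.48% of all genes were lower and 1.77% higher. Their medians lay within 0.1 of 0, and those of cholesterol synthesis, fatty acid synthesis and fatty acid oxidation were below 0 as deposited and above 0 (0.04, 0.08 and 0.04) under scaling by the median ratio, as was that of glycogen (0.04). The 25 genes of cholesterol synthesis had a median of -0.06. Fatty acid synthesis had 1 of 16 lower at the nominal P, Mlxipl, which encodes the sugar-sensing factor ChREBP (-0.35 ± 0.06, adjusted p of 0.0585), while Fasn overlapped between the times at -0.34 ± 0.25. In fatty acid oxidation and ketogenesis, 1 of 30 was higher, the fatty acid transporter Cd36 (0.56 ± 0.12, adjusted p of 0.0786), and Cpt2 stood at -0.25 ± 0.12. In bile acid synthesis and transport, 2 of 18 were lower (11.1%) and 1 higher (5.56%). In a fit of all 18 normoxia libraries 0 were lower and 0 higher, and without any 1 of the ZT4 mice 1 was lower. Over all genes, 595 were lower and 165 higher in that fit, and 458 to 722 were lower without 1 ZT4 mouse. The canalicular pump gene Abcc2 read 20.3, 20.2 and 21.8 FPKM at ZT0 and 26.7, 26.5 and 27.6 FPKM at ZT4 (0.36 ± 0.06, adjusted p of 0.0585), the bile acid receptor gene Nr1h4 differed by -0.49 ± 0.09, and Cyp7a1, the rate-limiting enzyme of bile acid synthesis, by -1.28 ± 0.31 with normoxia ZT0 replicate 2 at 25.1 FPKM and the other ZT0 mice at 10.9 FPKM each.

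In the respiratory chain and ATP synthase, 0 of 79 genes reached the nominal P, the median was -0.10, and it was -0.01 under scaling by the median ratio. The smallest P there was that of Ndufa12 (-0.28 ± 0.08, adjusted p of 0.123), and Cox6a1 stood at -0.16 ± 0.09. The mitochondrial ribosome had 8 of 77 genes lower (10.4%) and 0 higher, against 6.48% and 1.77% of all genes, and a median of -0.13 that was -0.05 under that scaling. Its lower genes numbered 5 under that scaling and under quantile normalization, where 483 and 504 of all genes were lower, against 856 as deposited. Without normoxia ZT0 replicates 1, 2 and 3 they numbered 3, 10 and 4, where 566, 730 and 578 of all genes were lower. Without any 1 of the ZT4 mice they numbered 5, where 458 to 722 of all genes were lower. Mrpl34 had the smallest P of the list (54.7, 49.4 and 50.7 FPKM at ZT0 and 34.4, 38.5 and 31.8 FPKM at ZT4, adjusted p of 0.0574). The TCA cycle had 0 of 17, with Idh3a at 11.6, 14.3 and 13.0 FPKM at ZT0 and 9.81, 6.16 and 10.8 FPKM at ZT4 (-0.52 ± 0.19, adjusted p of 0.195). Amino acid breakdown and the urea cycle had 0 of 33, led by Nags at -0.32 ± 0.11.

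Against 1.77% of all genes higher and 6.48% lower at the nominal P, the lists for making and clearing protein had 0 to 2 members each in either direction. The cytosolic ribosome had 0 of 80 at the nominal P (median -0.09, Rpl31 at -0.20 ± 0.08), ribosome biogenesis 2 of 40 lower, Nop16 and Nolc1 (median -0.15), and the proteasome 0 of 38 (Psmd5 at -0.31 ± 0.10). Autophagy had 2 of 24 higher (8.33%) and 1 lower. Under scaling by the median ratio 3 were higher and 0 lower, where 444 of all genes were higher and 483 lower. Ulk1, the kinase that starts autophagy, read 10.3, 8.25 and 9.28 FPKM at ZT0 and 21.8, 16.0 and 19.3 FPKM at ZT4 (0.96 ± 0.13, adjusted p of 0.0508). Wipi1, of the growing autophagosome, was at 0.79 ± 0.13 and Tfeb, the factor for lysosome genes, at -0.35 ± 0.09. The unfolded protein response had 2 of 25 higher (8%), Trib3 (1.12 ± 0.17, adjusted p of 0.0574) and Chac1 (0.98 ± 0.26), and 2 lower, Ddit3 (-1.05 ± 0.23) and Dnajb9 (-1.11 ± 0.25). Trib3, Chac1 and Ddit3 are known targets of ATF4, and they lay on both sides of 0.

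In the insulin, growth hormone and IGF axis, 1 of 22 was higher and 1 lower, where 1.77% of all genes were higher and 6.48% lower. Inhbe, a hepatokine subunit, differed by -0.96 ± 0.23 (adjusted p of 0.0907), and Igfbp1, which falls with insulin and binds IGF, read 4.86, 5.23 and 27.3 FPKM at ZT0 and 28.9, 104 and 73.4 FPKM at ZT4 (adjusted p of 0.116). The highest ZT0 mouse nearly reached the lowest ZT4 mouse. Glucocorticoid targets had 1 of 15 higher, Lpin1, a phosphatidic acid phosphatase and coactivator, at 3.17, 2.42 and 4.15 FPKM at ZT0 and 8.20, 6.33 and 7.87 FPKM at ZT4 (1.01 ± 0.17, adjusted p of 0.0585). HIF targets and oxygen sensors had 3 of 18 lower, P4ha1 (-1.02 ± 0.15, adjusted p of 0.0544), Egln3 (-0.34 ± 0.08) and Pdk1 (-0.25 ± 0.06), and 1 higher, Kdm3a (0.58 ± 0.14). That was 16.7% lower against 6.48% of all genes. The lower genes numbered 1 under scaling by the median ratio and under quantile normalization, where 483 and 504 of all genes were lower. They also numbered 1 without normoxia ZT0 replicate 1 or 3 or ZT4 replicate 1 or 2. Over all genes, 566, 578, 469 and 722 were lower without these mice, in that order, against 856. Higher genes numbered 0 without any 1 of these mice or ZT0 replicate 2, where 158 to 243 of all genes were higher. Drug metabolism had 1 of 32 in each direction, Ces1d at -0.72 ± 0.16 and Gsta1 at 0.56 ± 0.13. Antioxidant and NRF2 targets had 1 of 16 lower, Nfe2l2 (-0.47 ± 0.12), the interferon response 1 of 20, Stat2 (-0.73 ± 0.17), and the cell cycle 2 of 22, Ccnd2 (-0.37 ± 0.08) and Ccnd3 (-0.36 ± 0.10). Immediate early genes had 0 of 27 (Cebpb, 0.43 ± 0.15), though 23 of the 27 were higher at ZT4. Their median was 0.22, and 0.26 under scaling by the median ratio.

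**Figure D4:**
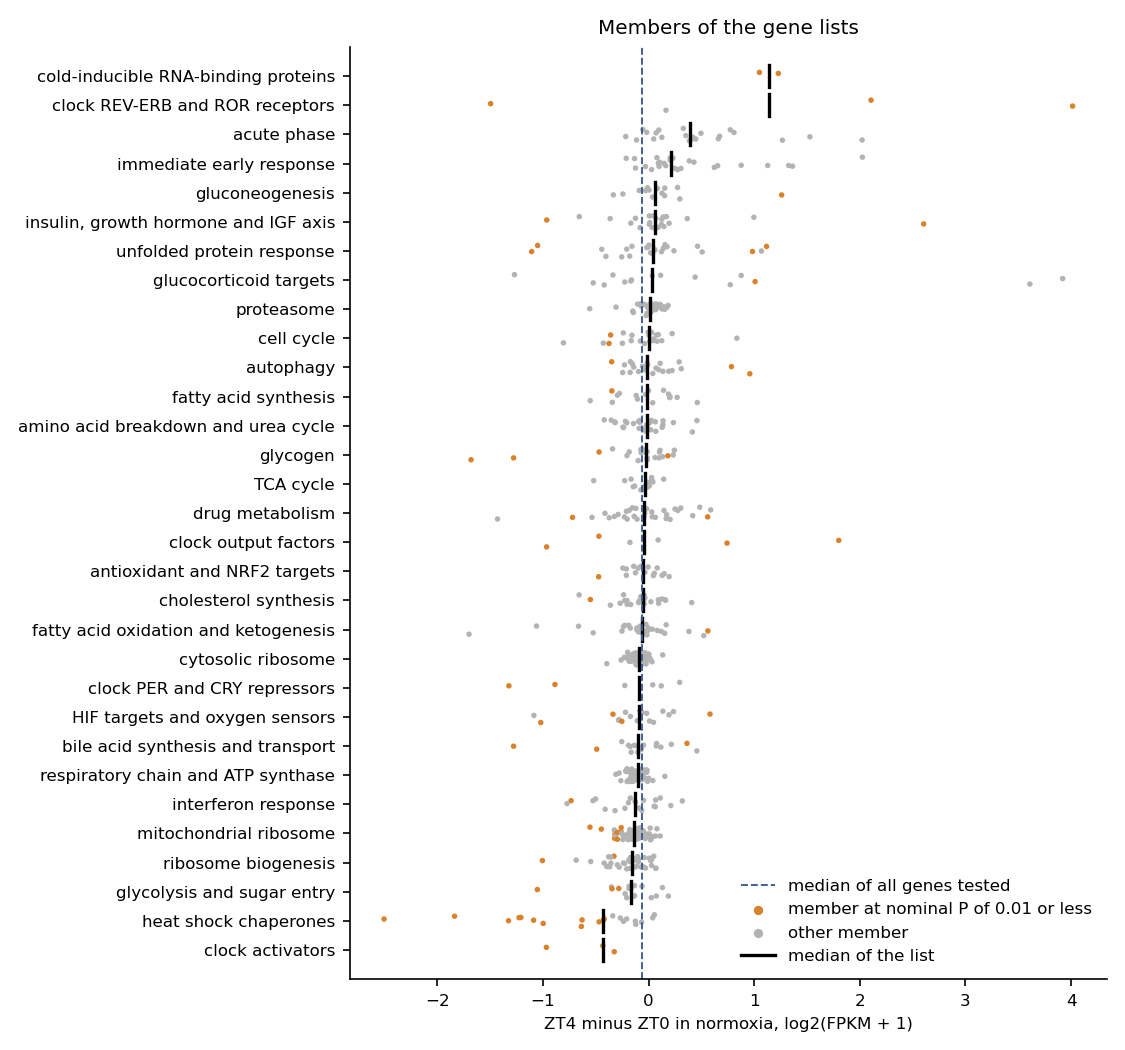
Difference ZT4 minus ZT0 on the log2(FPKM + 1) scale for each member of the 31 gene lists, with members at a nominal P of 0.01 or less in orange, the median of each list as a black bar and the median of all 13215 genes as a dashed line at -0.06. Heat shock chaperones and clock activators have the lowest medians, at -0.43 each, and the cold-inducible genes and the REV-ERB and ROR receptors the highest.

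Acute phase genes differed between mice of the same time. Saa1 read 49.8, 382 and 1235 FPKM at ZT0 and 2357, 57.4 and 2435 FPKM at ZT4, so that normoxia ZT4 replicates 1 and 3 stood above the rest and ZT4 replicate 2 beside the lowest ZT0 mouse. Of the 22 acute phase genes, 0 reached the nominal P, and Steap4 had the smallest (1.53 ± 0.49, adjusted p of 0.151). As a list, 18 of the 22 were higher at ZT4, with a median of 0.39, and 0.49 under scaling by the median ratio. The median of their steps in IH was -0.83. Hepatocyte markers dominated every library, the 8 genes summing to 39981 to 46476 FPKM at ZT0 and 46063 to 48198 FPKM at ZT4. Kupffer cell markers summed to 87.6 to 108 and 77.6 to 146 FPKM, sinusoidal endothelium to 72.3 to 85.2 and 57.6 to 73.0 FPKM, stellate cells to 141 to 231 and 137 to 182 FPKM, cholangiocytes to 34.0 to 48.4 and 34.7 to 61.0 FPKM, and erythroid cells to 92.3 to 130 and 96.5 to 120 FPKM. Lymphocyte markers summed to 1.35 to 2.02 and 1.40 to 1.90 FPKM and neutrophil markers to 0.836 to 2.68 and 2.11 to 6.89 FPKM. Of the 7 pancreas, muscle or fat markers in the table, 4 were at 0 in all 6 libraries (Prss1, Cpa1, Acta1 and Plin1), and their sum of 12.6 to 20.4 and 9.43 to 17.9 FPKM was almost wholly Cela1. Of the markers tested, Pck1 alone reached the nominal P, and the smallest P of the other lists were those of Clec4f, Clec4g, Lrat, Sox9, Nkg7, S100a8, Hbb-bs and Cela1, with adjusted p from 0.126 to 0.688. Marker by marker, 9 of 9 endothelial and 8 of 9 stellate genes were lower at ZT4, with medians of -0.21 and -0.10. Of the hepatocyte markers 6 of 8 were higher (median 0.18), and of the Kupffer cell markers 7 of 10 (median 0.06). Higher too were 4 of 4 neutrophil markers tested (median 0.43), 3 of 6 cholangiocyte, 2 of 6 lymphocyte and 1 of 3 erythroid markers. The neutrophil sums, all low, were highest in normoxia ZT4 replicates 1 and 3 (4.18 and 6.89 FPKM), which also had the highest Saa1. The part of any cell type in the results above was not tested.

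The same step was measured in 6 other mice, those exposed to IH. Those libraries entered the comparison above only through the filter on mean FPKM, which was taken over all 36 libraries. In IH, 193 genes were higher at ZT4 (1.46% of genes tested) and 97 lower (0.734%) at the adjusted threshold. Of the 33 genes called in normoxia, 29 had the same direction in IH, all 9 that rose and 20 of the 24 that fell, where 55.8% of all genes had the same direction. At the adjusted threshold in IH, 5 of the 9 were higher and 5 of the 24 lower. Nr1d1 read 3.56, 8.24 and 2.74 FPKM at ZT0 and 55.0, 54.6 and 55.6 FPKM at ZT4 in IH (3.38 ± 0.31), and its difference of steps, 0.64 ± 0.46, had an adjusted p of 0.471. Nr1d2 (1.99 ± 0.24) and Hdc (1.14 ± 0.11) also had steps in IH close to those in normoxia. Ppard fell in IH from 27.0, 18.2 and 22.7 FPKM to 2.97, 2.67 and 2.51 FPKM, a difference of -2.65 ± 0.14. The 4 genes of opposite direction were Rin3, Esrra, Smarcd2 and Tbc1d13, with steps in IH of 0.24, 0.24, 0.06 and 0.03, none past the threshold there.

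Whether a step differed between the conditions was tested directly in the 12 libraries. At the adjusted threshold 0 of the 13215 genes (0%) differed, with 2428 at an unadjusted P under 0.05, 821 at the nominal P of 0.01 and a smallest adjusted p of 0.0647. This count rested on the libraries, since it was 563 without IH ZT0 replicate 3, and between 0 and 10 without any other. The 5 smallest P were those of Pi4k2a, Tfrc, Cxadr, Zfp276 and Prickle4, each with an adjusted p of 0.0647. Tfrc, the transferrin receptor for iron uptake, read 2.47, 2.47 and 2.49 FPKM at ZT0 and 2.12, 2.74 and 2.60 FPKM at ZT4 in normoxia, and 3.43, 3.22 and 3.54 FPKM against 1.68, 1.36 and 1.31 FPKM in IH. Normoxia mice thus overlapped where IH mice did not. Cxadr, a cell adhesion protein and virus receptor, stepped by 0.25 ± 0.07 in normoxia and -0.79 ± 0.13 in IH, Pi4k2a, a lipid kinase, by 0.34 ± 0.06 and -0.32 ± 0.07, Zfp276 by -0.40 ± 0.10 and 0.50 ± 0.09, and Prickle4 by -0.51 ± 0.07 and 0.19 ± 0.08.

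Among the 19 clock genes, Dbp and Tef had the largest differences of steps between the conditions, and none passed the adjusted threshold. Dbp read 0.122, 0.0637 and 0.140 FPKM at ZT0 and 8.78, 30.5 and 37.1 FPKM at ZT4 in IH, a step of 4.36 ± 0.48 against 1.80 ± 0.16 in normoxia. The difference of the steps was -2.56 ± 0.56 with an adjusted p of 0.0956. Tef stepped by 2.25 ± 0.25 in IH against 0.74 ± 0.16, and Hlf by 0.79 ± 0.16 against -0.47 ± 0.13, with adjusted p of 0.0871 and 0.0799 for the differences. Rgs16, a regulator of G protein signalling that marks fasted hepatocytes, chosen after its values were seen, read 1.10, 0.336 and 0.281 FPKM at ZT0 and 3.42, 1.02 and 1.58 FPKM at ZT4 in normoxia, and 1.02, 2.23 and 5.07 FPKM against 86.8, 77.5 and 78.0 FPKM in IH. Its difference of steps, -3.69 ± 0.54, had an adjusted p of 0.0647.

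**Figure D5:**
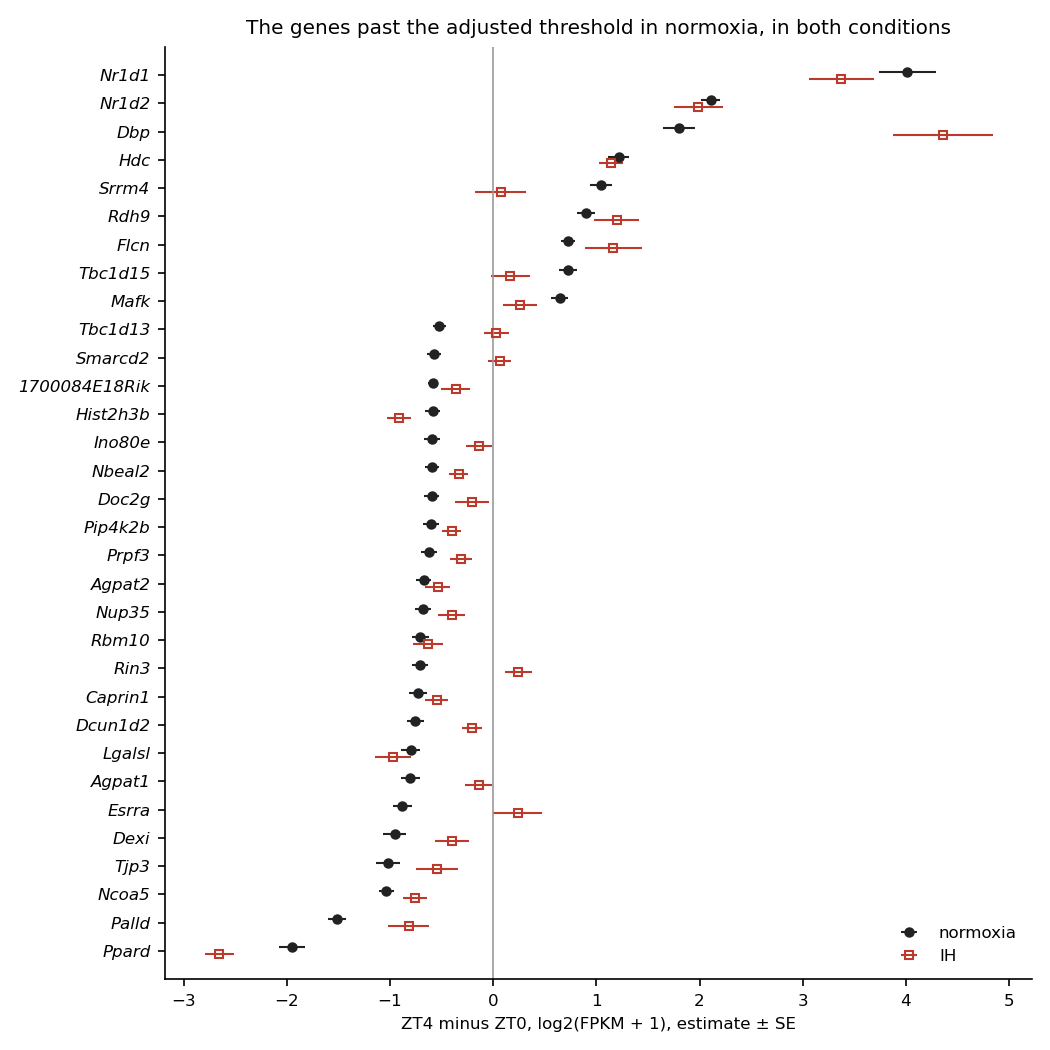
Difference ZT4 minus ZT0 on the log2(FPKM + 1) scale, with its SE, of 32 genes past the adjusted threshold in normoxia, in normoxia (filled circles) and in IH (open squares, 3 and 3 other mice). All 9 genes that rose lie to the right of 0 in IH too, Dbp farther out at 4.36, and 19 of the 23 drawn that fell lie to the left.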

How the data were processed

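Liver RNA of 36 mice was measured by stranded, paired-end sequencing of polyadenylated RNA. The authors deposited 1 table of FPKM per condition, made with TopHat2 2.1.1 and Cufflinks 2.2.1 per the submitters' processing notes. FPKM are not counts, so depth is known only relatively, from steps of 1 fragment among 2862 symbols under 0.12 FPKM. Samples were grouped by their labels, and each table's condition was taken from the name of the table. All columns of per-sample values were used, and no comparison columns of the authors were found.

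Of 24883 rows, the 24066 symbols on 1 row were kept, and 13215 reached 0.1 FPKM on average across all 36 libraries. log2(FPKM + 1) was fitted with limma 3.58.1 (R 4.3.3, intensity trend, two-sided, Benjamini-Hochberg over all genes tested) in the 6 normoxia libraries. The IH step was fitted alike, and the difference of steps in 12 libraries. The P values measure the spread among 3 mice per time. Scripts were tested on simulated data. Figures used matplotlib 3.10.9.

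Named genes were the 10 largest differences in each direction and the 5 smallest P among genes past the adjusted threshold with a mean of at least 1 FPKM and no overlap, every clock gene, up to 4 called members of each other list or else the member with the smallest P, the 5 smallest P of the difference of steps, and Fbp1, Ldha, Gys2, Pygl, Idh3a, Cox6a1, Fasn and Cpt2. Some genes that these rules cover are not reported here. Other list members at a nominal P of 0.01 were named after their values were seen. The comparison and the lists were chosen with earlier results of these data known, so their counts are descriptions. Gene positions are from GENCODE vM21 (mm10) and promoters from RefSeq (GRCm38.p6). Same-numbered mice did not deviate together (r of -0.0242, -0.184 and 0.0602), so they were not paired. Alternatives were another pseudocount, other filters, 3 scalings, no intensity trend, summed symbols, a replicate block, 18 or 36 libraries, a nominal threshold, each mouse left out and, chosen after seeing the data, removal of a trend with gene length and GC content.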

Additional observations from a re-analysis of the deposited data

How the results depend on the processing

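The main counts were 9 genes higher and 24 lower, with 4 list members among them, and 0 for the difference of steps. With no filter on low values (17344 genes tested) they were 2 and 4 with 2 list members, and among genes averaging 1 FPKM or more 46 and 166 with 23. Scaling by the median ratio gave 20 and 13, quantile normalization 18 and 12, and removal of a trend with length and GC content, chosen after seeing the data, 40 and 32 with 10 list members. Without an intensity trend there were 33 and 129 with 16, in 18 libraries 60 and 151 with 23, in 36 libraries 111 and 392 with 36, and at the nominal P 234 and 856 with 70. The replicate block gave 0 and 0 with 0 list members in limma, with 2272 genes at an unadjusted P under 0.05, where same-numbered mice share only a number. Leaving out 1 mouse gave 1 to 15 higher, 2 to 9 lower and 1 to 5 list members. Without normoxia ZT0 replicates 1, 2 and 3 the counts were 1 and 3, 3 and 6, and 3 and 5, and without ZT4 replicates 1, 2 and 3 they were 6 and 3, 15 and 9, and 2 and 2. The difference of steps was called in 10 genes without an intensity trend, 16 in 36 libraries, 821 at the nominal P, 0 with the replicate block (2025 at an unadjusted P under 0.05) and 0 to 563 with 1 mouse left out. The cause of these shifts was not tested. None of the 33 genes changed direction in any of these settings where it was tested, which was so for 30 of them under the 1 FPKM filter. Their direction was largely fixed beforehand, since they were chosen in these same mice. Over 84 named genes, 1591 recomputed values held 152 that lost the threshold, 92 that gained it and 14 that moved in another way. The sign of a difference near 0 could change, as for Tfrc without normoxia ZT4 replicate 1. Genes below a few FPKM are limited by depth, which is known only in relative terms.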

Other observations

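Beyond the lists, 7 genes are given as values, chosen after these were seen, and none passed the adjusted threshold. Gpcpd1, a phosphodiesterase of glycerophosphocholine, read 7.16, 5.37 and 10.2 FPKM at ZT0 and 22.7, 34.4 and 47.3 FPKM at ZT4 (2.04 ± 0.30, adjusted p of 0.0544). Fabp5, a fatty acid carrier, read 19.0, 58.0 and 46.3 FPKM at ZT0 and 150, 80.5 and 223 FPKM at ZT4 (adjusted p of 0.109). Elovl3, the elongase of very long chain fatty acids, read 457, 314 and 369 FPKM at ZT0 and 176, 209 and 88.2 FPKM at ZT4 (-1.34 ± 0.32, adjusted p of 0.0929). Plin5, a lipid droplet coat protein, differed by -1.09 ± 0.19 (adjusted p of 0.0585). Tsku, a secreted protein of the liver, read 33.3, 64.8 and 19.3 FPKM at ZT0 and 13.4, 3.56 and 5.77 FPKM at ZT4 (adjusted p of 0.0928). Alas1, the rate-limiting enzyme of heme synthesis, spread from 42.0 to 243 FPKM at ZT0 and from 24.2 to 57.9 FPKM at ZT4 and overlapped, as did Nampt, the enzyme that recycles nicotinamide, at -0.24 ± 0.13.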
